A study of Mus musculus with 25 samples.

Results

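Perilipins, CIDE proteins and the membrane proteins that help to form lipid droplets were followed in pgWAT, the perigonadal fat pad, of male C57BL6/J mice. The genes were 10, namely *Plin1*, *Plin2*, *Plin3*, *Plin4*, *Plin5*, *Cidea*, *Cideb*, *Cidec*, *Fitm2* and *Bscl2*, and their probes were all those that carry these gene names on the array. The 10 genes, out of 37074 gene names, had 16 probes, out of 56605 gene probes, and all 16 were in the table of 40561 probes that was tested. All 16 probes were well above background on all 25 arrays.

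The samples were 25 mice on 25 single-colour Agilent arrays. ChREBPβ KO mice (n = 6) carried a CRISPR/Cas9 deletion of the exon of *Mlxipl* that is specific to the β isoform, in every cell of the body, and ChREBPβ WT mice (n = 7) were their wild-type littermates. Total ChREBP KO mice (n = 5) were *Mlxipl*-null and lacked the α and β isoforms in all tissues, and total ChREBP WT mice (n = 7) were wild-type animals of that line. All mice had been fasted for 24 h and then refed for 18 h with chow and 20% glucose in the drinking water, so no group was fasted or fed without glucose. Ages were not in the labels.

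Triglyceride in an adipocyte is stored in lipid droplets, each bounded by a single layer of phospholipid and coated with proteins. Perilipins coat this surface and regulate the access of lipases, CIDE proteins act at contacts between droplets and help them to fuse and grow, and the products of *Fitm2* and *Bscl2* (FIT2 and seipin) act in the endoplasmic reticulum where droplets are formed. ChREBP is a transcription factor that is activated by glucose metabolites and binds DNA with its partner MLX at pairs of E-boxes. The comparisons asked which of these transcripts changed when only ChREBPβ was lacking, which changed when both isoforms were lacking, and whether the effects differed. No group lacked ChREBPα alone. A change in total ChREBP KO through loss of α and one through loss of both isoforms therefore cannot be told apart.

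Values are log2 intensities after quantile normalisation between arrays by the authors. Log2 differences came from a limma fit of all arrays with wash batch as a term, and a probe was called at a Benjamini-Hochberg adjusted p under 0.05 over all 40561 probes. A gene with several probes is described by its brightest one, and the level of one gene cannot be set against that of another on such an array. *Mlxipl* itself fell from 15.98 ± 0.16 (SD, n = 7) to 14.21 ± 0.08 (SD, n = 5) between the wild-type and knockout mice of the total ChREBP line (limma adjusted p = 1.11e-08). In the ChREBPβ line its level was 15.07 ± 0.27 (SD, n = 7) in the wild type against 14.34 ± 0.31 (SD, n = 6) in the knockout (limma adjusted p = 0.116), and neither pair of groups overlapped. These values are of the brightest of 3 *Mlxipl* probes. In the total ChREBP line A_55_P2728555 differed by -0.66 (adjusted p = 0.00103) and A_55_P2045158 by 0.08 (adjusted p = 0.695), and the exons that the probes detect were not determined.

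The tissue label was checked on marker genes. The mean of 11 adipocyte genes was 15.41 to 15.75 on the 25 arrays. The mean of 11 liver genes, among them *Alb* and *Ttr*, was 12.19 to 15.89 in ChREBPβ WT, 10.81 to 15.38 in ChREBPβ KO, 7.65 to 12.97 in total ChREBP WT and 7.23 to 8.32 in total ChREBP KO. Comparing the wild types, all 11 liver genes were called as lower in the total ChREBP line. *Adam7*, the only one of 6 epididymis genes in the table, reached 15.71 on total ChREBP WT replicate 2 and 10.13 or less on the other arrays of that group, so results below are also given without this array where it matters. In a piece of tissue, fewer cells of a type and less RNA per cell cannot be told apart.

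The 300-base promoters of the members called between total ChREBP KO and WT mice are shown first, because ChREBP binds E-boxes near its target genes. They run from 250 bases before to 50 bases after the annotated transcription start on the mouse build GRCm38.p6, from RefSeq, 5′ to 3′ on the strand of the gene, and capitals mark every CANNTG (the general E-box). *Plin2*, which was lower in total ChREBP KO, lies at chr4:86670010-86670309 (minus strand), *Plin1* at chr7:79732727-79733026 (minus), *Plin4* at chr17:56109733-56110032 (minus) and one start of *Cidec* at chr6:113435711-113436010 (minus), and these 3 were higher. The other annotated start of *Cidec* is not printed because its promoter held no CANNTG.
Plin2: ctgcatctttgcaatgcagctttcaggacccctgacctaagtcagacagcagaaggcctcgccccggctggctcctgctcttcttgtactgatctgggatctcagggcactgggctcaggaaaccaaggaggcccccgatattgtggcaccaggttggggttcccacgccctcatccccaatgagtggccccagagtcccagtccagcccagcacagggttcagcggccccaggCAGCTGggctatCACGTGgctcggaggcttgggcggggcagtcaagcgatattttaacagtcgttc
Plin1: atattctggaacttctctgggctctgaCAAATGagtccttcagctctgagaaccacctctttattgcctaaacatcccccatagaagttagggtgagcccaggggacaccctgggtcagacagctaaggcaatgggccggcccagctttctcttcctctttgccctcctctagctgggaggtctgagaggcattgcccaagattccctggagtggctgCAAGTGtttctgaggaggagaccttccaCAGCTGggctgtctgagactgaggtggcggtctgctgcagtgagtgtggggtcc
Plin4: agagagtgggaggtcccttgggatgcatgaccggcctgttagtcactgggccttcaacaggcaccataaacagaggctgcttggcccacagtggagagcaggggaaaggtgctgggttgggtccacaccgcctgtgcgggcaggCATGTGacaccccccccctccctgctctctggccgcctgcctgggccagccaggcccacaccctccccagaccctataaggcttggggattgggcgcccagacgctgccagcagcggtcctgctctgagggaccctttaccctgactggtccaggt
Cidec: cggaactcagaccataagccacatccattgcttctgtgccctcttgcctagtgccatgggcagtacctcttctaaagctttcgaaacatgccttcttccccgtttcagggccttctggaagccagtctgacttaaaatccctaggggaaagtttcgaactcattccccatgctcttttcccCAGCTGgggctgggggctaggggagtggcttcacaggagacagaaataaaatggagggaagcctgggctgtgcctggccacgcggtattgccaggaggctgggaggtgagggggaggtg

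The *Plin2* promoter held CACGTG, the palindromic E-box, beginning 4 bases before the start. It was the only one of the 13 promoters of 9 members to hold these letters, which occur in 7.15% of all 32851 promoters of this length. *Cidea*, the remaining member, was left out of the promoter search, so these counts do not cover it. At least 1 CANNTG was in 8 of the 13 promoters and in 72.3% of all promoters. CANNTGNNNNNCANNTG, with the 5-base spacing of a carbohydrate response element, was in none of the 13 and in 0.767% of all promoters. Only pairs of exact CANNTG were sought, so this count does not cover elements with other letters. In *Plin2* the palindrome lay 6 bases after the other E-box of that promoter. CANNTGNNNNNNCANNTG, a spacing looked for after the sequence had been seen, was in 0.764% of all promoters and in no other promoter of a member. AGGTCA, the single nuclear receptor motif, was sought on both strands and was in 4 of the 13 promoters (*Plin2*, *Plin5* and *Bscl2*) and in 16.3% of all. AGGTCANAGGTCA, the direct repeat that PPARγ binds with RXR, was in none of the 13 and in 0.0396% of all. A match of letters is a description of the sequence and not a binding site.

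In total ChREBP KO compared with total ChREBP WT mice, 4 of the 10 genes were called. *Plin2* was lower, and *Plin1*, *Plin4* and *Cidec* were higher. For comparison, 8.79% of all probes were called in this contrast, 5.35% as higher and 3.44% as lower, and 9.25% were called when each gene name was represented by its brightest probe. The groups of all 4 genes did not overlap, which was so for 6.8% of all probes. The median log2 difference over all probes was 0.02.

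**Figure D1:**
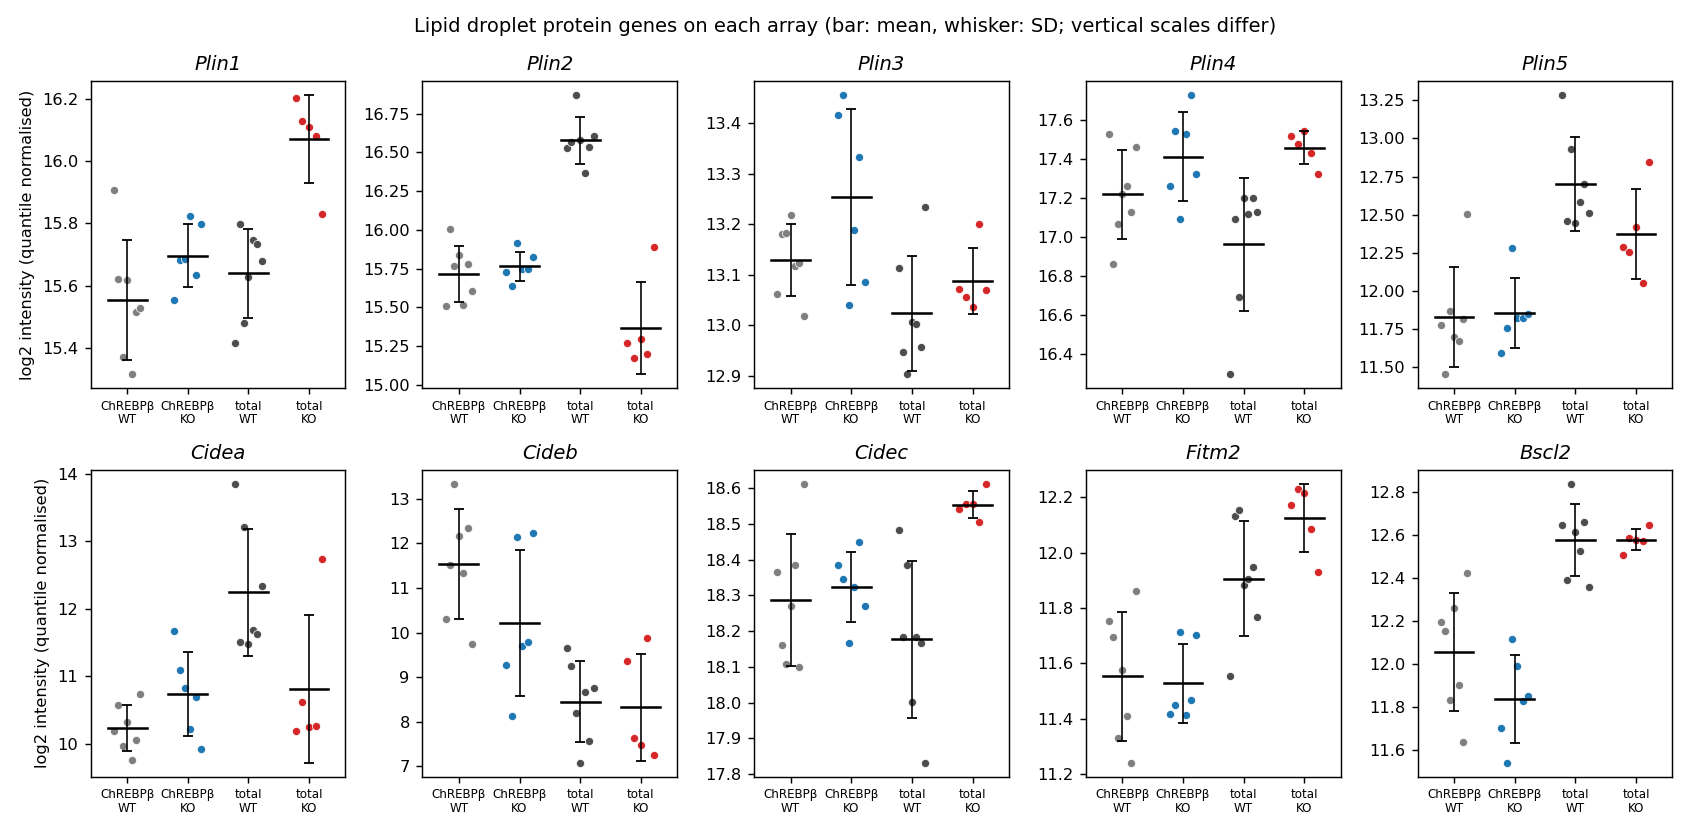
Each point is 1 array, with the log2 intensity of the brightest probe of each gene on the vertical axis and the 4 groups on the horizontal axis, and bars and whiskers give the mean and SD. For Plin2 the total ChREBP WT arrays lie at 16.36 to 16.87 above all other arrays, and for Plin1 the total ChREBP KO arrays lie at 15.83 to 16.20.

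*Plin2* encodes a perilipin that coats small droplets in most cell types. Its brightest probe (A_55_P1999648, chromosome 4, 86302847 to 86302906, mm9) read 15.27, 15.18, 15.30, 15.20 and 15.89 on the arrays of total ChREBP KO replicates 1, 2, 3, 4 and 7. In total ChREBP WT the lowest, median and highest values were 16.36, 16.57 and 16.87. Thus 4 of the 5 knockout arrays lay close together, and replicate 7 stood above them but below all wild-type arrays. The log2 difference was -1.22 (SE 0.11, 95% interval -1.45 to -0.98, limma adjusted p = 1.54e-07), a 2.33-fold lower level. It was -1.54, -1.27, -0.56 and -1.29 within wash batches 1 to 4, and replicate 7 was the only knockout array of batch 3. Without replicate 7 it was -1.39.

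A further *Plin2* probe, A_66_P132059, gave the same direction. In total ChREBP KO it read 10.94 ± 0.35 (SD, n = 5), against 11.98 ± 0.25 (SD, n = 7) in the wild type, a log2 difference of -1.04 (SE 0.16, limma adjusted p = 0.00011). The groups did not overlap on this probe either.

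*Plin1* encodes the perilipin of mature adipocytes, which holds back lipolysis until it is phosphorylated. Its brightest probe (A_51_P244497, chromosome 7, 86866112 to 86866171, mm9) read 16.20, 16.13, 16.11, 16.08 and 15.83 in total ChREBP KO replicates 1, 2, 3, 4 and 7. The total ChREBP WT arrays ran from 15.42 through a median of 15.68 to 15.80. Every knockout array was above every wild-type array, with replicate 7 just above the highest of them. The log2 difference was 0.43 (SE 0.09, 95% interval 0.25 to 0.62, limma adjusted p = 0.00256).

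The 3 *Plin1* probes did not behave alike. A_55_P2729049, designed on the cDNA AK027962, was higher in total ChREBP KO by 0.72 (SE 0.17, limma adjusted p = 0.00988) with no overlap between the groups. A_55_P2728182, designed on the cDNA BC025137, differed by 0.06 (SE 0.11, limma adjusted p = 0.863). Exons of the mm9 build were not used here, so the transcript that each probe detects is not stated.

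**Figure D2:**
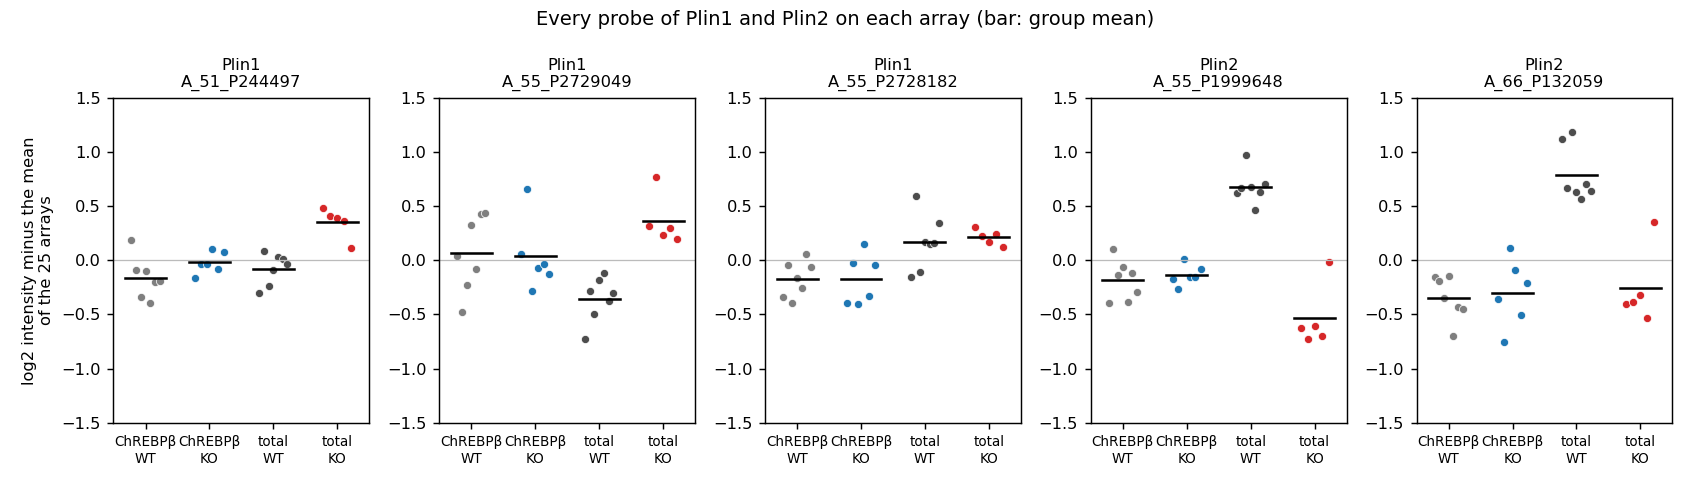
Each point is 1 array, the vertical axis is the log2 intensity of a probe minus its mean over the 25 arrays, and bars are group means. Both Plin2 probes are lower in total ChREBP KO than in total ChREBP WT, whereas of the 3 Plin1 probes A_55_P2728182 has group means of 12.88 and 12.93 in the total ChREBP line.

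*Plin4* encodes a perilipin of adipocytes that binds nascent droplets. It read 17.52, 17.48, 17.54, 17.43 and 17.33 in total ChREBP KO replicates 1, 2, 3, 4 and 7. In total ChREBP WT its lowest, median and highest values were 16.30, 17.12 and 17.20, and the lowest was that of replicate 2. The log2 difference was 0.52 (SE 0.15, limma adjusted p = 0.0281). It was 0.40 without total ChREBP WT replicate 2 (adjusted p = 0.0282), and it was no longer called when total ChREBP WT replicate 4 or any of total ChREBP KO replicates 1, 2, 3 and 4 was left out (0.48 to 0.50, adjusted p = 0.0621 to 0.0773). With the mean of the 11 liver genes as a covariate it was 0.28 and not called (adjusted p = 0.265), and these liver genes were lower in total ChREBP KO by a median of -1.96, 2 of the 11 being called.

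*Cidec* (also called Fsp27) encodes the CIDE protein that promotes the large single droplet of the white adipocyte. Its probe read 18.54, 18.56, 18.56, 18.51 and 18.61 in total ChREBP KO replicates 1, 2, 3, 4 and 7. The lowest, median and highest values of total ChREBP WT were 17.83, 18.18 and 18.48. This probe is so bright that quantile normalisation gives several arrays the same value, such as 18.56 on replicates 2 and 3, so the narrow knockout range is not informative. Before normalisation the intensities overlapped, at 370379 to 398397 in total ChREBP KO and 204541 to 390415 in total ChREBP WT. The log2 difference was 0.39 (SE 0.10, limma adjusted p = 0.0136), or 1.31-fold, and it was 0.34 to 0.44 within the 4 wash batches. When only the arrays of these 2 groups were fitted, *Cidec* (adjusted p = 0.0733) and *Plin4* (adjusted p = 0.0956) were not called, and *Plin1* and *Plin2* were.

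*Cidea*, the CIDE member best known from brown adipocytes, was not called. Total ChREBP KO replicates 1, 2, 3, 4 and 7 read 10.19, 10.62, 10.25, 10.26 and 12.74, against a lowest, median and highest value of 11.48, 11.69 and 13.86 in total ChREBP WT. Hence 4 knockout arrays were lower than any wild-type array and replicate 7 lay among the wild types. The log2 difference was -1.43 (SE 0.46, 95% interval -2.39 to -0.46, limma adjusted p = 0.0616). It was -1.91, -1.26, 1.08 and -2.91 within wash batches 1 to 4. Without total ChREBP KO replicate 7 it was -2.06 and was called (adjusted p = 0.00167). Without total ChREBP WT replicate 2, the array with the highest *Cidea* value, it was -1.15 (adjusted p = 0.108). Replicate 7 had an *Mlxipl* level of 14.19, within the 14.07 to 14.29 of its group. *Ucp1*, the defining gene of brown adipocytes, had a mean of 4.65 in total ChREBP KO and 4.92 in total ChREBP WT. These levels were close to the array background, 15 to 22 on the linear scale, so they do not show whether brown adipocyte content differed. The mean of 11 brown or beige fat genes was 8.49 to 9.15 in total ChREBP KO and 8.62 to 9.19 in total ChREBP WT, with the highest knockout value on replicate 7. Of these 11 genes 2 were called, in opposite directions, *Dio2* (2.62) as higher and *Kcnk3* (-3.31) as lower in total ChREBP KO. The part of these genes in the *Cidea* values was not tested.

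The remaining 5 genes were not called in the total ChREBP line. *Plin5*, a perilipin of oxidative tissues, differed by -0.30 (95% interval -0.65 to 0.05). *Plin3*, a perilipin expressed in many tissues, differed by 0.06 (-0.10 to 0.21), *Fitm2* by 0.20 (-0.03 to 0.44), *Bscl2* by 0.00 (-0.25 to 0.25) and *Cideb*, the CIDE member of hepatocytes and enterocytes, by -0.15 (-1.62 to 1.32). The interval of *Cideb* was wide, and its level ranged from 7.26 to 9.87 in total ChREBP KO and from 7.08 to 9.64 in total ChREBP WT.

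In ChREBPβ KO compared with ChREBPβ WT mice, 0 of the 10 genes were called, and 0% of all probes were called. At an unadjusted p under 0.05, 9.02% of all probes passed and so did *Cideb* alone among the members. *Plin2* read 15.77 ± 0.09 (SD, n = 6) in the knockout against 15.72 ± 0.18 (SD, n = 7) in the wild type, with extremes of 15.64 and 15.91 against 15.51 and 16.01. The log2 difference was 0.05 (95% interval -0.17 to 0.28). Its further probe differed by 0.06 (SE 0.15, limma adjusted p = 0.954).

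*Plin1* differed by 0.15 (95% interval -0.02 to 0.33), *Plin4* by 0.21 (-0.08 to 0.50) and *Cidec* by 0.04 (-0.16 to 0.23) between these groups. The intervals of *Plin3* (-0.03 to 0.26), *Plin5* (-0.30 to 0.36), *Fitm2* (-0.26 to 0.19) and *Bscl2* (-0.46 to 0.02) also held 0. *Cidea* differed by 0.51, with an interval from -0.41 to 1.43. *Cideb* read 8.13 to 12.23 in ChREBPβ KO and 9.74 to 13.34 in ChREBPβ WT, and its log2 difference was -1.40 (95% interval -2.80 to -0.01, limma adjusted p = 0.551). All 11 liver genes also had negative differences in this line (-1.64 to -0.77, none called), and with their mean as a covariate the *Cideb* difference was -0.68.

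**Figure D3:**
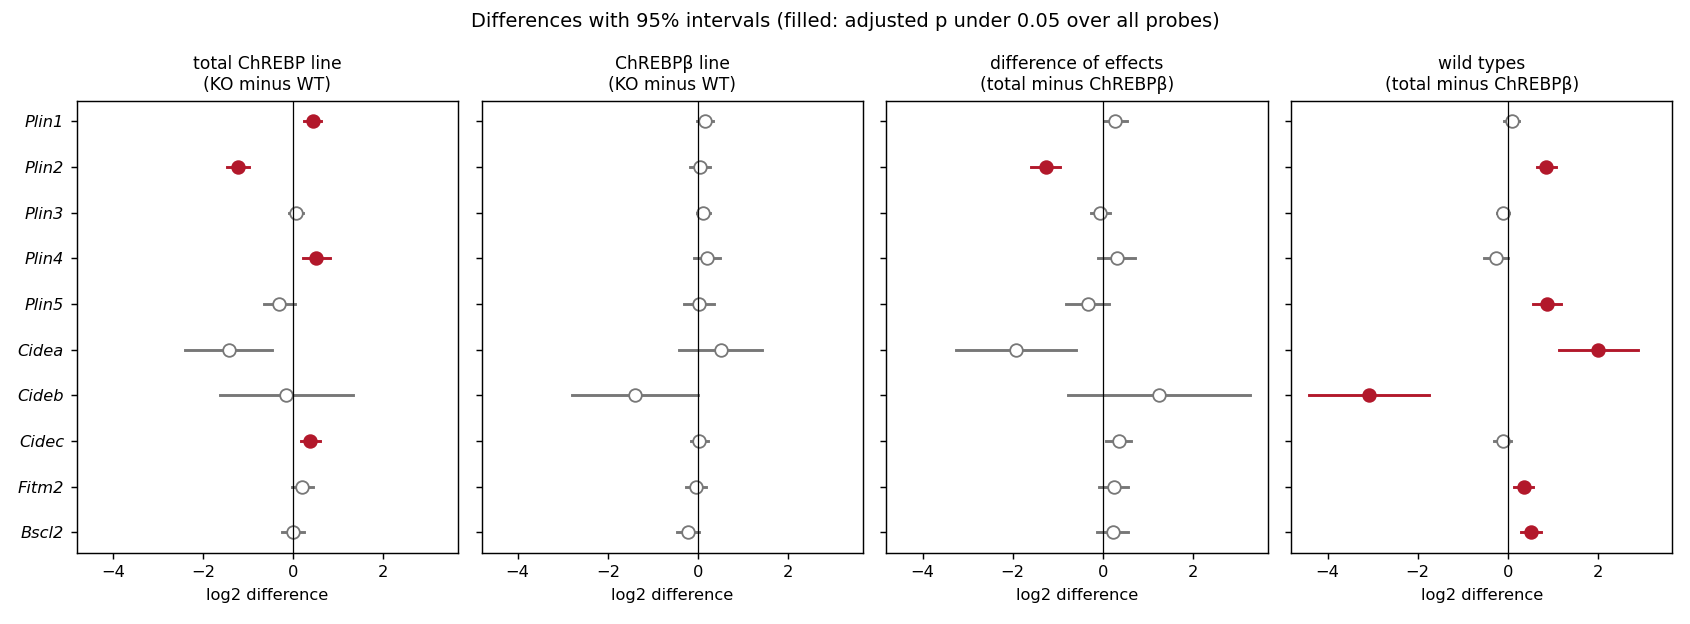
Points are log2 differences and lines their 95% intervals for the 10 genes in the 4 contrasts, with filled points where the adjusted p was under 0.05. In the total ChREBP line Plin2 (-1.22) lies to the left and Plin1 (0.43), Plin4 (0.52) and Cidec (0.39) lie to the right, and no point is filled in the ChREBPβ line.

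The effects of the 2 knockouts were then set against each other by the difference of the differences, total ChREBP line minus ChREBPβ line. It was called for 3.21% of all probes and for 1 of the 10 genes, *Plin2*, at -1.27 (SE 0.16, 95% interval -1.59 to -0.95, limma adjusted p = 2.55e-05). The further *Plin2* probe gave -1.10 (SE 0.22, limma adjusted p = 0.00395). For *Plin1*, *Plin4* and *Cidec* the differences of effects were 0.28 (95% interval 0.03 to 0.54, limma adjusted p = 0.307), 0.31 (-0.11 to 0.72, adjusted p = 0.618) and 0.35 (0.07 to 0.63, adjusted p = 0.212). These 3 genes were thus called in one line without a called difference between the lines. *Cidea* gave -1.94 (95% interval -3.26 to -0.61, limma adjusted p = 0.123), and -2.51 with an adjusted p of 0.00639 without total ChREBP KO replicate 7.

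The wild-type mice of the lines differed from each other in these genes as well. In total ChREBP WT compared with ChREBPβ WT, 6 of the 10 genes were called, where 22% of all probes were called (also 22% by the brightest probe of each gene name), 14.7% as higher and 7.26% as lower. The higher ones were *Plin2*, *Plin5*, *Cidea*, *Fitm2* and *Bscl2*, and the lower one was *Cideb*. This contrast uses the same total ChREBP WT arrays as the knockout contrast, so these contrasts are not independent. *Plin2* was 0.86 higher (SE 0.10, limma adjusted p = 1.33e-05), and its 4 group means ran from 15.37 in total ChREBP KO through 15.72 in ChREBPβ WT and 15.77 in ChREBPβ KO to 16.58 in total ChREBP WT. The neighbours of the first 3 overlapped in their values, and the total ChREBP WT arrays lay above the arrays of all other groups.

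*Plin5* was 0.87 higher in total ChREBP WT (SE 0.15, limma adjusted p = 0.000378), and 0.89 higher by its further probe A_51_P262757 (SE 0.14, adjusted p = 0.000209). It read 11.46, 11.78 and 12.50 (lowest, median and highest) in ChREBPβ WT and 12.45, 12.58 and 13.28 in total ChREBP WT, so the groups overlapped slightly. *Cidea* was 2.02 higher (SE 0.42, limma adjusted p = 0.00174), with 9.77, 10.19 and 10.74 in ChREBPβ WT all below the total ChREBP WT arrays. Without total ChREBP WT replicate 2 these differences were 0.78 for *Plin5* and 1.72 for *Cidea*, and both were still called. *Bscl2* was 0.52 higher (SE 0.11, limma adjusted p = 0.00169) and *Fitm2* 0.35 higher (SE 0.10, limma adjusted p = 0.0157). The further *Fitm2* probe, A_52_P172441, was 0.52 higher (SE 0.12, adjusted p = 0.00303). With only the arrays of the wild types fitted, *Fitm2* was not called (adjusted p = 0.0563). *Plin1*, *Plin3*, *Plin4* and *Cidec* differed by 0.09, -0.11, -0.26 and -0.11 and were not called, though *Plin1* was called at 0.21 (adjusted p = 0.0311) when the processed signal was scaled to the 75th percentile of each array. The further *Plin1* probe A_55_P2728182 was called as 0.34 higher (SE 0.10, limma adjusted p = 0.0170). A_55_P2729049 differed in the other direction, by -0.42 (SE 0.16, limma adjusted p = 0.0613), and was not called.

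*Cideb* was lower among total ChREBP WT than among ChREBPβ WT mice, by a log2 difference of -3.09 (SE 0.64, 95% interval -4.42 to -1.75, limma adjusted p = 0.00164). The groups did not overlap, nor did those of *Cidea* and *Plin2*, as was so for 5.06% of all probes. The fainter *Cideb* probe A_55_P2746861, 6.62 to 7.87 over all arrays, differed by -0.27 (SE 0.15, adjusted p = 0.219). With the mean of the 11 liver genes as a covariate, the *Cideb* difference was -0.35 (adjusted p = 0.827). *Cidea* (1.99, SE 0.71, adjusted p = 0.0929), *Fitm2* (0.24, SE 0.17, adjusted p = 0.419) and *Bscl2* (0.52, SE 0.18, adjusted p = 0.0896) were no longer called. Over all 40561 probes, 3041 were called with the covariate and 8912 without it. For *Cidea* and *Bscl2* the differences stayed near the 2.02 and 0.52 found without the covariate, and their SEs rose from 0.42 and 0.11. *Plin2* and *Plin5* were called with this covariate too, and *Plin4*, not called without it, was called at -0.75 (adjusted p = 0.0124). The liver genes moved with the same contrast by -6.04 to -3.35. Their mean was 12.19 to 15.89 in ChREBPβ WT and 7.65 to 12.97 in total ChREBP WT, with little overlap. A fit with this covariate therefore cannot tell liver signal and mouse line apart, and the part of the liver genes in the differences was not tested.

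**Figure D4:**
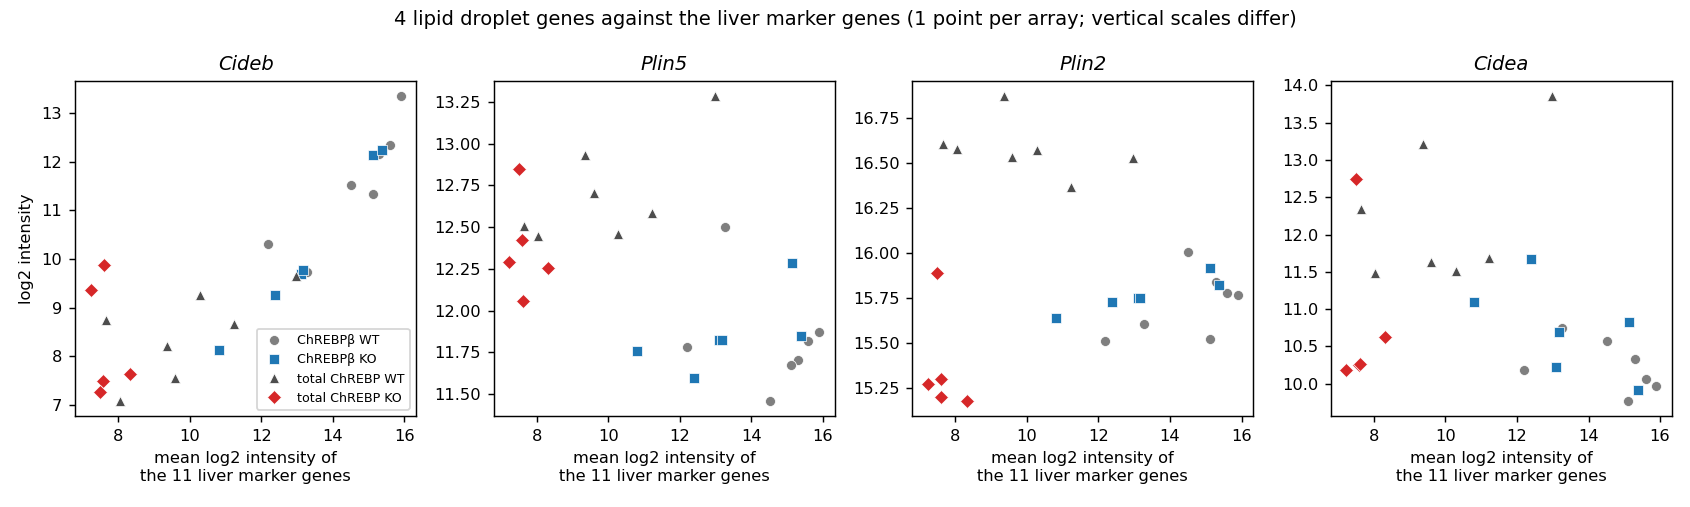
Each point is 1 array, with the mean log2 intensity of 11 liver genes on the horizontal axis and the log2 intensity of Cideb, Plin5, Plin2 or Cidea on the vertical axis. Cideb runs from 9.74 to 13.34 in ChREBPβ WT and from 8.13 to 12.23 in ChREBPβ KO, which overlaps the total ChREBP arrays. For Plin2 the total ChREBP WT arrays (16.36 to 16.87) lie above the other arrays, and their liver means end at 12.97, below most ChREBPβ arrays.

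The genes with the profile most like that of each member over the 25 arrays, among 26405 gene names, are given as a description, since all arrays share the group differences and the wash batches. For *Cideb* they were *Hpn* (Pearson r = 0.993), *0610005C13Rik* (0.992) and *Etnk2* (0.985). For *Plin2* the first were *Pkm* (0.957) and *Gm5079* (0.950), and for *Plin1* they were *2010012O05Rik* (0.949) and *Gnb5* (0.938). *Plin4* was followed by *Fgfr1* (0.927), *Hilpda* (0.894) and *BC048403* (0.891), *Cidec* by genes that included *Tma7* (0.825) and *Txlng* (0.825), and *Cidea* by *Dock3* (0.872) and *Fam57b* (0.868) among genes with a symbol. *Bscl2* was most like *Uxt* (0.948), *Uck1* (0.947) and *Echdc1* (0.943), and among genes with a symbol *Plin5* was most like *Uck1* (0.895) and *Aasdhppt* (0.893) and *Fitm2* was most like *2310001K24Rik* (0.940) and *Vdac3* (0.938).

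Of 34 other genes of the lipid droplet, all on the array, 8 were higher and 2 lower in total ChREBP KO than in total ChREBP WT. The other 24 were not called. For comparison, 9.25% of gene names were called in this contrast by their brightest probe. The median difference was 0.10 for the 34 genes against 0.02 over all probes. In the ChREBPβ line 0 of the 34 genes and 0% of all probes were called, and the median for the 34 genes was 0.02.

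Genes of lipolysis and its regulation at the droplet surface gave 1 higher and 1 lower of 7. *Mgll*, the monoglyceride lipase, was 0.36 higher (SE 0.09, limma adjusted p = 0.0101), and *Pnpla3*, a relative of *Pnpla2* on the droplet, was lower (-0.58). *Pnpla2* (adipose triglyceride lipase) differed by 0.16, its coactivator *Abhd5* by 0.17, its inhibitor *G0s2* by -0.10 and *Lipe* (hormone-sensitive lipase) by -0.08, and none of these was called.

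Genes of glycerolipid synthesis and droplet formation gave 4 higher and 1 lower of 10. *Gpat3* and *Gpat4*, the glycerol-3-phosphate acyltransferases of the endoplasmic reticulum, were 0.97 and 0.35 higher, and the acyl-CoA synthetases *Acsl1* and *Acsl3* were 0.63 and 0.61 higher. *Lpin1*, a phosphatidate phosphatase, was lower (-0.35). *Dgat1* (0.03) and *Dgat2* (-0.08), which make triglyceride, were not called. *Gpat3* read 14.98 ± 0.21 (SD, n = 7) in wild-type and 15.95 ± 0.35 (SD, n = 5) in knockout mice of the total ChREBP line, and it was the only one of the 34 with a called difference of effects between the lines (0.93, limma adjusted p = 0.0352).

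Of 13 genes of the droplet surface and its traffic, 0 were called. Of 4 genes of caveolae, the membrane pits that are abundant in adipocytes, 3 were higher, *Cav1* by 0.73, *Cav2* by 0.69 and *Ehd2* by 0.66, and *Cavin1* differed by 0.22. Their means in the 7 total ChREBP WT arrays were 12.10, 14.84 and 13.86 for the 3 called genes, and those in the 5 total ChREBP KO arrays were 12.83, 15.52 and 14.52. Between the wild-type groups, 8 of the 34 were called as higher and 7 as lower in total ChREBP WT, where 22% of gene names were called by their brightest probe. *Hsd17b13* (-4.10), *Tmt1b* (-2.90) and *Fitm1* (-1.83) were the lowest in total ChREBP WT, in the same contrast as the liver genes. The mean of *Fitm1* in total ChREBP WT, 4.42, lay near the array background, so the size of its difference is uncertain.

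**Figure D5:**
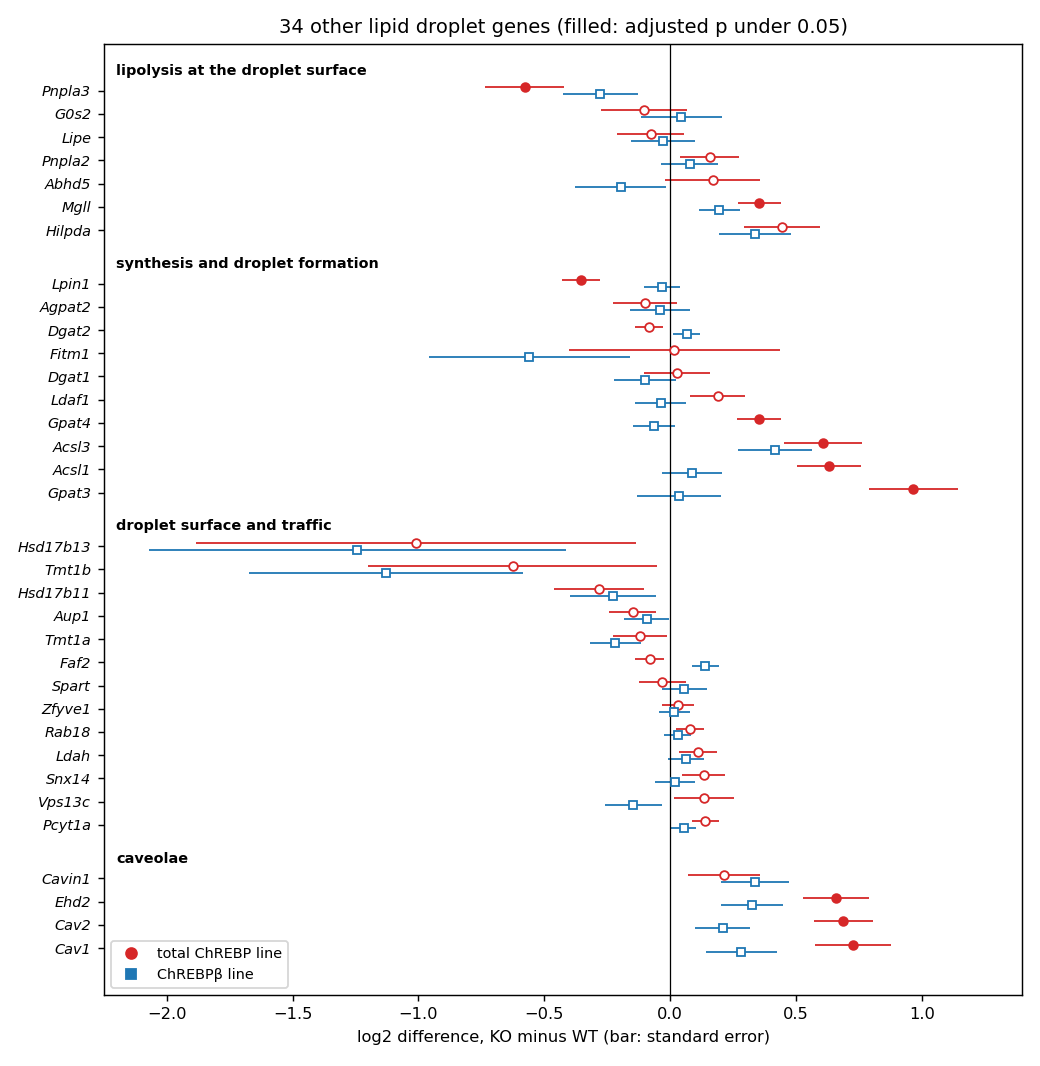
Points are log2 differences, knockout minus wild type, with their standard errors for 34 genes in 4 groups by role, in the total ChREBP line and the ChREBPβ line, filled where the adjusted p was under 0.05. The 10 filled points are all of the total ChREBP line, from Pnpla3 (-0.58) to Gpat3 (0.97).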

How the data were processed

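RNA from pgWAT of 25 mice, 1 array per mouse, was labelled and hybridised to Agilent mouse arrays by the authors, who scanned them with Feature Extraction 10.10.1.1 (per the labels). The deposited series table holds the authors' log2 values of 40561 probes after a filter on dim spots, quantile normalisation and the median of replicated probes. The deposited scanner files hold linear intensities, with a median of 84 to 127 per array over a background of 15 to 22, and the lowest correlation of a table column with its log2 scanner intensities was 0.99981. The table was the main source because it holds every member, and renormalised scanner values were an alternative. Groups and the 4 wash batches, each with all 4 groups, came from the labels. Replicates were separate mice.

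The model ~0 + group + wash batch was fitted in limma 3.58.1 under R 4.3.3 with empirical Bayes moderation, with 18 residual degrees of freedom, and the fit was tested on simulated data. Benjamini-Hochberg adjustment ran over all probes of a contrast. The number of arrays limits the precision. Named genes were all members by their brightest probe with further probes beside it, other droplet genes called in the total ChREBP line, the 3 genes most correlated with each member called in any contrast, *Mlxipl* and markers. Further droplet genes were named after their values were seen, as examples that were not called or differed between wild types. Of the correlated genes, 1 is not reported here. The members and lists were chosen with earlier results of these data known. Marker lists of adipocyte, brown or beige fat, liver, macrophage, kidney, skeletal muscle and epididymis genes had 11, 11, 11, 10, 5, 5 and 1 genes tested. They gave 4, 2, 2, 1, 0, 1 and 0 called genes when total ChREBP KO and WT were compared, where 9.25% of gene names were called by their brightest probe. Of the adipocyte genes, 2 were higher (*Adrb3* and *Cebpa*) and 2 lower (*Slc2a4* and *Gpd1*). Each list gave 0 called genes in the ChREBPβ line, where 0% of all probes were called. Alternatives were 4 other treatments of the intensities, 6 other models, gene means over probes, fits of the compared groups alone, and each array left out in turn. Array coordinates are on mm9 and promoters on GRCm38.p6.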

Additional observations from a re-analysis of the deposited data

Results flagged for a closer look

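The difference between the 2 knockout effects passed the adjusted threshold for *Plin2* (-1.27), *Gpat3* (0.93) and *Mlxipl* (-1.03). The highest or lowest array of a group stood apart from the rest of its group by Dixon's criterion in 9 of the 84 gene groups looked at, and chance flags about 1 in 20. Total ChREBP KO replicate 7 was flagged for *Plin2*, at 15.89 with the next array at 15.30, and for *Cidea*, at 12.74 with the next at 10.62. Total ChREBP KO replicate 4 was flagged for *Plin3* (13.20), ChREBPβ WT replicate 8 for *Plin5* (12.50) and ChREBPβ KO replicate 4 for *Plin5* (12.28). Among the other droplet genes, *Gpat3* (15.32) in ChREBPβ WT replicate 1, *Lpin1* (13.90) in ChREBPβ WT replicate 8, *Acsl3* (10.09) in ChREBPβ WT replicate 2 and *Acsl1* (16.45) in total ChREBP WT replicate 2 were flagged.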

How the results depend on the processing

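*Plin2* kept its direction and its call in the total ChREBP line (-1.39 to -1.13), in the difference of effects (-1.42 to -1.18) and between the wild types (0.81 to 1.03) under every alternative run, and *Plin1* kept them in the total ChREBP line (0.32 to 0.54). *Plin4* lost its call in the total ChREBP line under 8 of 24 alternatives, most of all with the liver covariate (0.28), and *Cidec* under 2 of 24. The number of members called in the total ChREBP line was 4, and 2 when only the arrays compared were fitted. It was 3 to 5 when arrays were left out in turn. For the wild types it was 6, 7 with the 75th percentile, 5 with only the arrays compared, and 3 with the liver score as a covariate (*Plin2*, *Plin5* and *Plin4*). For the difference of effects it was 1 to 2 when arrays were left out, with 2 without total ChREBP KO replicate 7, which adds *Cidea*. In the ChREBPβ line it was 0 throughout. *Cidea* in the total ChREBP line was called under 4 of 24 alternatives. With the liver score as a covariate, 3041 of all 40561 probes were called between the wild types and 2403 in the total ChREBP line. Without this covariate these counts were 8912 and 3564.

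Signs turned, without a call on either side, for *Bscl2* in the total ChREBP line (-0.0055 with the 75th percentile, -0.0122 with normexp, -0.0043 with only the arrays compared), *Fitm2* (0.0083 with the replicate block) and *Plin5* (-0.0038 with probe means) in the ChREBPβ line, and, with the liver covariate, *Cideb* in the total ChREBP line (1.14) and *Plin1* between wild types (-0.0194). With arrays left out, *Bscl2* and *Cideb* in the total ChREBP line and *Plin5* and *Fitm2* in the ChREBPβ line ran over -0.0366 to 0.0453, -0.5068 to 0.1792, -0.071 to 0.1463 and -0.0838 to 0.0303.

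Replicate numbers were shared by the groups. The 29 same-numbered pairs of arrays correlated at -0.432 to 0.547 in their deviations from the group means, with a median of -0.013. The 204 pairs with different numbers had a median of -0.005. These deviations were not adjusted for wash batch, and whether the numbers pair the mice cannot be told from them. With the replicate block, 3, 0, 1 and 6 members were called in the total ChREBP line, the ChREBPβ line, the difference of effects and the wild types, and *Cidec* lost its call (adjusted p = 0.0718). The cause of these changes was not tested.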
